A study of Mus musculus with 9 samples.

Results

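The alpha and delta cell identity genes described here were Irx1, Irx2, Pou3f4, Gc and Ttr, which mark glucagon-producing alpha cells, and Hhex, which marks somatostatin-producing delta cells. They were taken by name, 6 of 54347 genes in the count table, by a rule that uses no measured value. RNA had been sequenced from pancreatic neuroendocrine tumors of INS-p25OE mice and from normal islets, to ask how the tumors differ from the tissue they arise in. INS-p25OE mice carry Ins2-rtTA, in which the insulin promoter drives a doxycycline-dependent activator in beta cells, and tetOp-p25GFP, which that activator switches on to make p25, an activator of the kinase Cdk5. Doxycycline was given in drinking water from weaning at 3 to 4 weeks, and the controls were transgene-negative littermates on the same C57BL/6 background. The age at which the sequenced tissue was taken is not given in the sources used here. The libraries M1 to M3 came from 3 tumors classed as functional, meaning insulin-secreting, M4 to M6 from 3 classed as non-functional, and NI1 to NI3 from 3 islet samples, with M2 the only library from a female.

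Alpha cells and delta cells are the endocrine cells that share the islet with beta cells. Irx1 and Irx2 are neighboring homeobox genes of the Iroquois family that, among islet cells, are expressed in alpha cells. Pou3f4 (Brn4) is a POU-domain factor that binds the glucagon gene promoter. Hhex is a homeobox factor required to maintain delta cells, and it is also expressed in liver, endothelium and blood cells. Gc, the vitamin D binding protein, and Ttr, the carrier of thyroxine and of retinol-binding protein, are secreted proteins made in quantity by the liver and, among islet cells, enriched in alpha cells.

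All coordinates are on GRCm38. Irx1 (ENSMUSG00000060969) lies on chromosome 13 from 71957921 to 71963723 and Irx2 (ENSMUSG00000001504) on the same chromosome from 72628820 to 72634198, with 665096 bases between them. Hhex lies on chromosome 19 from 37434810 to 37440731, Gc on chromosome 5 from 89417522 to 89457898 and Pou3f4 on chromosome X from 110814280 to 110817207. No annotated gene overlapped any of the 6 members. Promoter sequence from RefSeq (GRCm38.p6) was at hand for 4 of the 6 genes, and the 2 shown belong to the genes whose RNA the results below turn on. The bases immediately before the Irx2 start site (chr13:72628790-72628819, plus strand, CpG pairs in capitals) lead into a promoter with 19 CpG pairs in 250 bases, more than 80.3% of 32851 promoters hold. The Gc promoter held 0 CpG pairs and contained a palindrome of the kind bound by HNF1 (chr5:89457930-89457959, minus strand, match in capitals). That motif, GTTAATNATTAA on either strand, was chosen after the sequence was seen and occurred in 20 of 32851 promoters (0.0609%).
Irx2: gaaactCGagCGctccttcctcaactcctc
Gc: agtgacaaaGTTAATGATTAAaacctccca

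Library totals ran from 36468280 to 63637175 counts. Levels are given as CPM, counts scaled to library size by the TMM method, and the detection limit was set at 3 counts, which equals 0.0425 to 0.119 CPM. The library labelled NI1 stood apart from its group before any member was considered. Cdk5r1, the gene from which p25 derives, was at 149 to 401 CPM in the 6 tumors, at 18.4 CPM in NI2 and 12.5 CPM in NI3, and at 280 CPM in NI1. Over the 15532 genes tested, log2(CPM + 1) of NI1 correlated most closely with that of M6 (Pearson r = 0.988), a higher value than for any other pair of libraries (0.825 to 0.975), and with NI2 and NI3 at 0.920 to 0.932. The 2 libraries were not copies, since Gcg was 22.7-fold higher in NI1 than in M6. The comparisons of tested members with the islets are therefore given with and without NI1. In M4, 32.1% of counts were mitochondrial, against 1.76% to 8.41% in the other libraries.

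**Figure D1:**
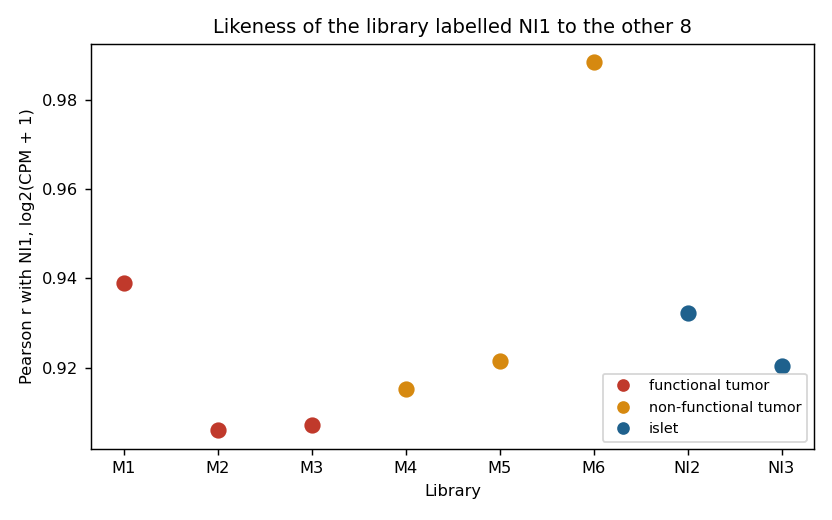
Pearson correlation (vertical axis) of log2(CPM + 1) over 15532 genes between the library labelled NI1 and each of the other 8 libraries (horizontal axis), colored by group. M6 stands at 0.988, above NI2 at 0.932 and NI3 at 0.920.

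Gc and Ttr, the secreted carriers, were the most abundant of the 6 genes and were lower in the 6 tumors than in NI2 and NI3, while NI1 lay among the tumors. Gc was at 118, 31.1 and 47.5 CPM in functional tumors and at 92.8, 39.5 and 8.78 CPM in non-functional tumors. In the islet libraries it was at 27.7 CPM in NI1, 761 CPM in NI2 and 370 CPM in NI3. All 6 tumors lay below NI2 and NI3, and 5 of the 6 lay above NI1. Against all 3 islet libraries the log2 fold change of Gc was -2.78 (standard error 0.85, edgeR adjusted p = 0.161), short of the threshold of 0.05. Without NI1, Gc fell by 3.33 on the log2 scale, or 10.1-fold (standard error 0.69, edgeR adjusted p = 0.0225). Because these are bulk samples, which cells held the Gc RNA is not known. Fewer such cells and less RNA per cell cannot be told apart.

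Ttr (chromosome 18, 20665280 to 20674321) was at 208, 372 and 35.1 CPM in functional tumors and at 165, 316 and 284 CPM in non-functional tumors. It was at 333 CPM in NI1, 933 CPM in NI2 and 1345 CPM in NI3. All 6 tumors again lay below NI2 and NI3, and only M2 exceeded NI1. The log2 fold change against all islets was -1.92 (standard error 0.59, edgeR adjusted p = 0.162). Without NI1, Ttr fell by 2.31 on the log2 scale, or 4.96-fold (standard error 0.60, edgeR adjusted p = 0.0462). DESeq2 on all 9 libraries passed Ttr (adjusted p = 0.0168) and not Gc (adjusted p = 0.0526). Scaling to 12 pan-endocrine genes moved the median of all genes to 0.68 and left Gc at -1.97 and Ttr at -0.96.

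The levels of these genes were not uniform across tumors or across NI2 and NI3. Gc was highest among the tumors in M1 and lowest in M6, a range of 13.4-fold, whereas Ttr was lowest in M3 and highest in M2, a range of 10.6-fold. Between the normal libraries Ttr was 1.44-fold and Gcg 6.17-fold higher in NI3 than in NI2, whereas Gc in NI3 was only 0.486 of its level in NI2. Gc therefore did not follow the glucagon transcript between those libraries.

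As both genes are liver products, 8 hepatocyte markers were summed. They totaled 1.23 to 6.77 CPM in tumors, 2.04 CPM in NI1, 8.05 CPM in NI2 and 10.7 CPM in NI3, so that all 6 tumors lay below NI2 and NI3 in this sum too. Fga was at 0 in all 9 libraries, and Alb reached 4.02 CPM in NI3. Their part in the levels of Gc and Ttr was not tested. Of the albumin family to which Gc belongs, Afm was at 0.457 to 32.1 CPM in tumors and 0.0991 to 3.37 CPM in islets, and Afp did not exceed 0.425 CPM. Rbp4, the retinol-binding protein that Ttr carries in plasma and a gene of the delta cell list, was at 7.0 to 277 CPM in tumors and 8.83 to 73.3 CPM in islets, with overlapping groups (log2 fold change 1.61, standard error 1.05, edgeR adjusted p = 0.414, and 1.16, adjusted p = 0.566, without NI1). Of the 9 genes of vitamin A and D carriage, 3 were tested and 0 passed in either direction, with or without NI1.

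**Figure D2:**
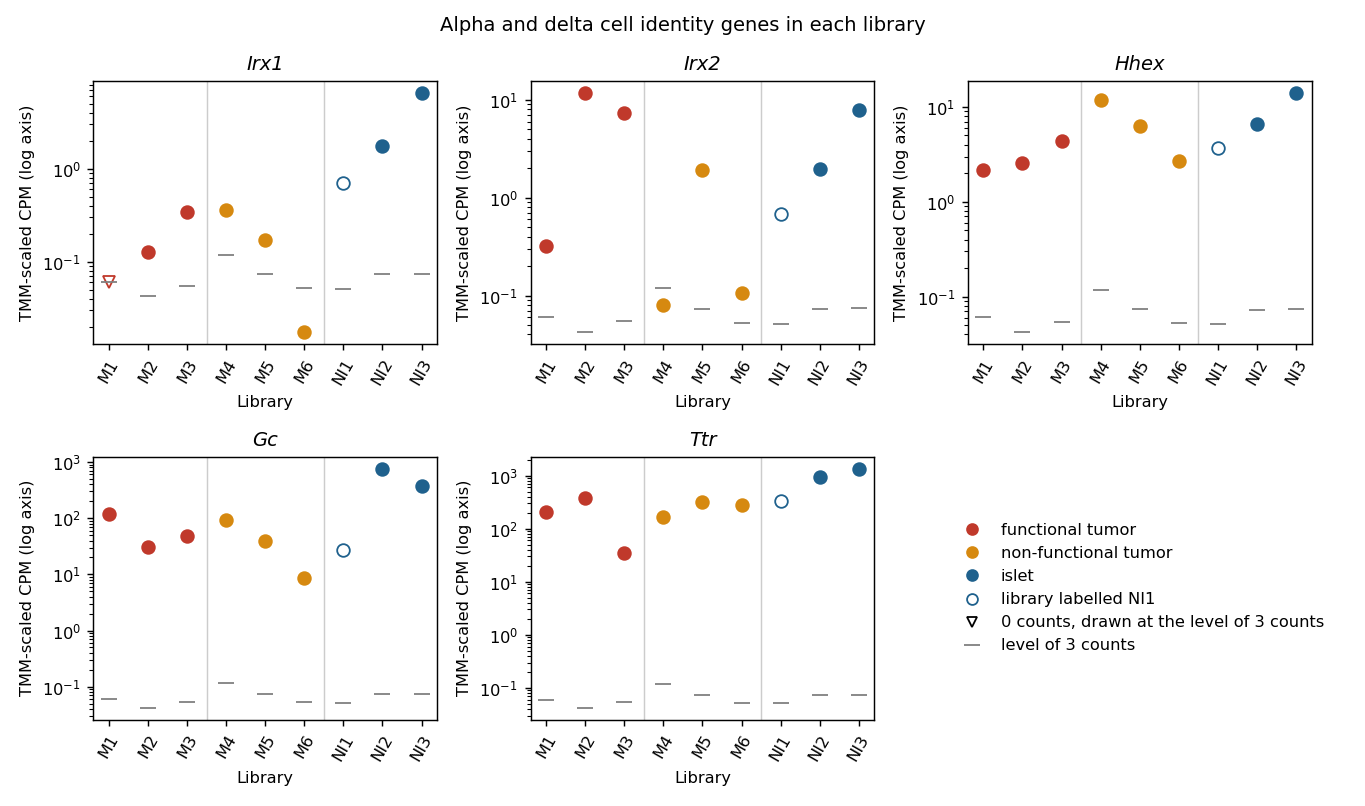
TMM-scaled CPM (vertical log axis) of 5 genes in the 9 libraries (horizontal axis), colored by group, with NI1 as an open circle and grey bars at the level of 3 counts; Pou3f4 had 0 counts throughout and is not drawn. Gc and Ttr sit lower in all 6 tumors than in NI2 and NI3, Irx1 lower than in all 3 islet libraries, and Irx2 in M2 and M3 reaches the level of NI3.

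Irx1 was low in every tumor. It was at 0, 0.127 and 0.345 CPM in functional tumors, at 0.357, 0.172 and 0.0176 CPM in non-functional tumors, and at 0.703, 1.78 and 6.54 CPM in NI1, NI2 and NI3. The 0 to 19 counts per tumor lay below all 3 islet libraries, NI1 included, without overlap. Irx1 was under the expression filter, so its mean log2(CPM + 1) was compared directly, and it was lower in tumors (difference -1.504, exact two-sided permutation test, p = 0.0119, the smallest that 84 labelings allow). Without NI1 the difference was -1.98 (exact permutation p = 0.0357, the smallest that 28 labelings allow). With no filter on low counts, edgeR on all 9 libraries gave a log2 fold change of -4.15 with an adjusted p of 0.0980, which missed the threshold. Irx1 was the only one of the 6 genes with all tumors below all islet libraries, a separation seen in 3.17% of the tested genes. All tumors lay below NI2 and NI3 for 3 of the 6 genes (Irx1, Gc and Ttr), against 16.3% of the tested genes. Irx1 and Pou3f4 were not among the tested genes, so these shares cover an unlike set. Of the 4 tested members, none showed the first separation, and Gc and Ttr showed the second.

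Irx2 did not follow Irx1. It was at 0.322, 11.7 and 7.40 CPM in functional tumors, at 0.0793, 1.92 and 0.106 CPM in non-functional tumors, and at 0.686, 1.95 and 7.93 CPM in NI1, NI2 and NI3. M2 was above every islet library and M3 stood close to NI3, whereas M4 and M6 held only 2 and 6 counts. The 3 islet libraries lay within the range of the tumors. The log2 fold change was 0.04 against all islets (standard error 1.4, edgeR adjusted p = 0.991), -1.23 with limma-trend and -0.46 without NI1 (standard error 1.56, edgeR adjusted p = 0.882). These standard errors span severalfold differences in either direction.

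The split between these neighbors is clearest within a library, where scaling has no part. Of the reads assigned to Irx1 and Irx2 together, Irx1 took 50.6% in NI1 (95% Clopper-Pearson interval 39.3% to 61.9%), 47.7% in NI2 (39.6% to 55.9%) and 45.2% in NI3 (41.1% to 49.3%). It took 1.07% of 839 reads in M2 (0.492% to 2.03%), 4.46% of 426 reads in M3 (2.71% to 6.88%) and 8.24% of 85 reads in M5 (3.38% to 16.2%). M1 had 0 of 16 reads from Irx1 (0% to 20.6%; a limit of 3 counts would be 18.8%). M4 stood at 81.8% of 11 reads (48.2% to 97.7%), an interval that overlapped those of all 3 islet libraries. Its 2 Irx2 counts were under the detection limit, so a reversed split in M4 is not shown. M6 had 1 of 7 reads from Irx1. The intervals cover counting error only, and the comparison was made after the levels had been seen, so no test is given.

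The transcript most like Irx2 across the 9 libraries was Gm20554, a lincRNA annotated on the opposite strand with its start 255 bases from that of Irx2, beside the promoter shown above (Pearson r = 0.977 on log2(CPM + 1), given as a description). It was at 4.32 CPM in M2 and 3.54 CPM in M3, at 1.29 CPM in NI2 and 2.11 CPM in NI3, at 0.257 CPM in NI1, and at 0 in M4 and M6. The gene pair therefore shared its high and low libraries, and the 2 gene models do not overlap. Zxdc (r = 0.961) and Ppfia2 (r = 0.961) came next. Irx4, 626280 bases further along chromosome 13, had 0 counts in all libraries. Of the other Iroquois genes, Irx3 was at 0.25 to 6.56 CPM in tumors and 1.02 to 1.51 CPM in islets, Irx5 did not exceed 0.344 CPM, and Irx6 was at 0.

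**Figure D3:**
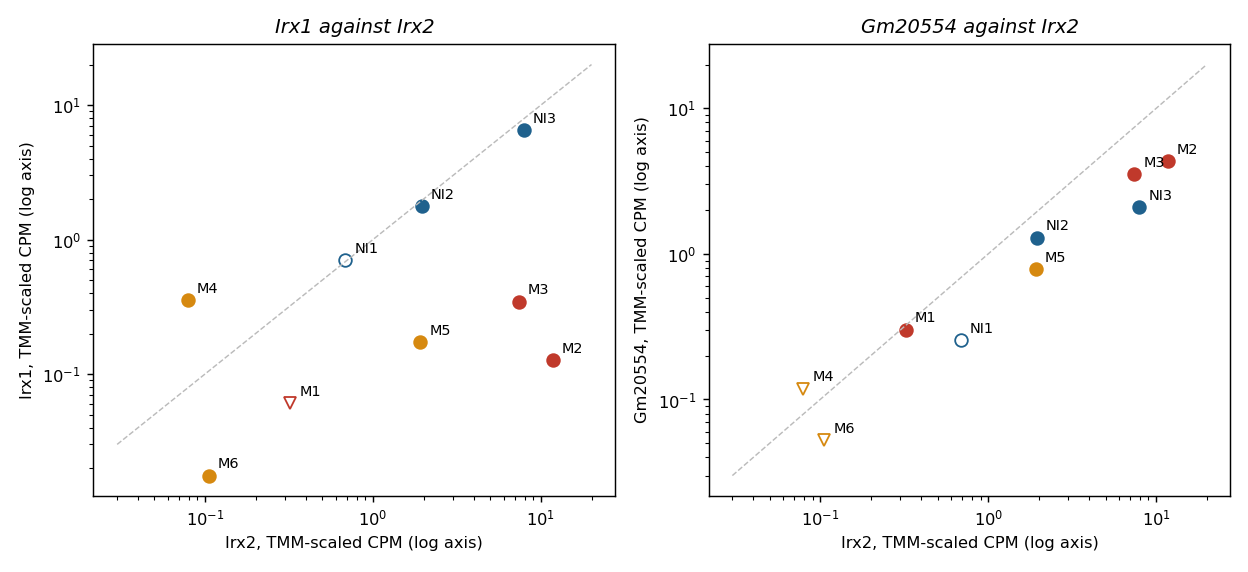
CPM of Irx1 (left) and of the divergent lincRNA Gm20554 (right) on the vertical log axes against CPM of Irx2 on the horizontal log axes, a point per library, with the line of equal CPM dashed and triangles marking 0 counts drawn at the level of 3 counts. The 3 islet libraries lie on the line for Irx1, while M2 and M3 fall far below it, and Gm20554 is high in the libraries where Irx2 is high.

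Gcg, the glucagon gene, places Irx2 against the hormone that defines alpha cells. Gcg was at 10.03 to 239 CPM in tumors and at 787, 2312 and 14256 CPM in the islets, without overlap (log2 fold change -6.57, standard error 1.21, edgeR adjusted p = 0.0704). DESeq2 on all 9 libraries called Gcg lower (adjusted p = 0.000423). Without NI1, Gcg fell by 7.09 on the log2 scale (standard error 1.19, edgeR adjusted p = 0.0113). For each 1000 counts of Gcg the islet libraries held 0.459 to 0.893 counts of Irx1 and 0.556 to 0.871 of Irx2, NI1 within or close to the range of the others. The tumors held 3.05 to 148 counts of Irx2 and 0 to 29.8 of Irx1 for each 1000 of Gcg. Every tumor was above every islet library for Irx2, and M3, M4 and M5 were for Irx1. The ratio to Gcg was also higher in every tumor than in every islet library for Ttr (701 to 20769 against 94.4 to 422), so with Gcg so low in tumors a raised ratio was not particular to Irx2. NI1 thus held Irx1 and Irx2 relative to Gcg much as NI2 and NI3 did, at a lower level of each.

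Pou3f4 had 0 counts in all 9 libraries, normal islets included, so its level lay under the detection limit in tumors and islets and gives no comparison. Its relatives Pou3f2 and Pou3f3 reached at most 0.127 CPM, and Pou3f1 was at 0.0528 to 2.62 CPM in tumors and 0.189 to 0.268 CPM in islets.

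Hhex showed no difference that passed a test, and its pattern departed from that of somatostatin. It was at 2.16, 2.53 and 4.36 CPM in functional tumors, at 11.8, 6.34 and 2.71 CPM in non-functional tumors, and at 3.65, 6.56 and 14.0 CPM in NI1, NI2 and NI3. M3, M4 and M5 lay inside the islet range, and every tumor but M4 was below NI2. The log2 fold change was -0.70 against all islets (standard error 0.60, edgeR adjusted p = 0.541), 0.15 when libraries were scaled to pan-endocrine genes, and -1.05 without NI1 (standard error 0.64, edgeR adjusted p = 0.326).

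Sst was at 107, 2528 and 2.74 CPM in M1, M2 and M3, at 80.4, 53.6 and 2.76 CPM in M4, M5 and M6, and at 79.9, 312 and 2399 CPM in NI1, NI2 and NI3. M2 thus matched NI3 in Sst while holding less Hhex than NI2 or NI3. For each 1000 counts of Sst, M2 held 1.00 count of Hhex (95% interval 0.861 to 1.16), against 5.85 in NI3 (5.37 to 6.35), 21.1 in NI2 and 45.7 in NI1. At the other end, M3 and M6 kept Hhex at 4.36 and 2.71 CPM with Sst under 3 CPM.

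The transcripts most like Hhex were Slc2a3 (r = 0.965), Xcr1 (r = 0.963), a chemokine receptor of dendritic cells, and Cebpd (r = 0.957). M4, the tumor highest in Hhex, was also highest in the summed markers of macrophages (1070 CPM, against 393 to 884 CPM in the other tumors and 171 to 382 CPM in islets). It was highest in those of fibroblasts too (1609 CPM, against 73.6 to 774 CPM in the other tumors and 93.0 to 148 CPM in islets). NI3, the library highest in Hhex at 14.0 CPM, was by contrast lowest in the macrophage sum, at 171 CPM. All 6 macrophage markers were higher in every tumor than in NI2 and NI3, but the share of all tested genes with that separation was not counted. In NI1 their sum was 382 CPM, close to the lowest tumor at 393 CPM. Against all 3 islet libraries 0 of the 6 passed in edgeR, where 0 of 15532 genes were called higher. Without NI1, 2 of them were higher (Adgre1 and Cd68), as were 819 of 15350 genes. The part of macrophages and fibroblasts in the level of Hhex was not tested.

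Across the lists, 9 of 14 alpha cell genes and 8 of 9 delta cell genes were tested. In edgeR against all 3 islet libraries, 0 of 9 alpha cell genes and 0 of 8 delta cell genes passed. The median log2 fold changes were -0.61 and -0.47, against -0.53 for 10 beta cell genes and 0.03 for all tested genes. None of the 4 tested members passed, although 2 (Gc and Ttr) had an unadjusted p under 0.05, as did 3074 of all 15532 genes, and 0.258% of all tested genes were called lower. Without NI1, 4 alpha cell genes were lower (Gcg, Tm4sf4, Gc and Ttr), while 0 delta cell genes passed, and 2 of 4 members were lower against 3.00% of all tested genes. The medians were then -0.70 and -0.72, against -0.77 for the beta cell genes and 0.05 for all genes. Slc38a5, an amino acid transporter of the alpha cell list that was outside the test because of low counts, was at most 0.255 CPM in tumors, against 0.720 to 13.5 CPM in islets.

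**Figure D4:**
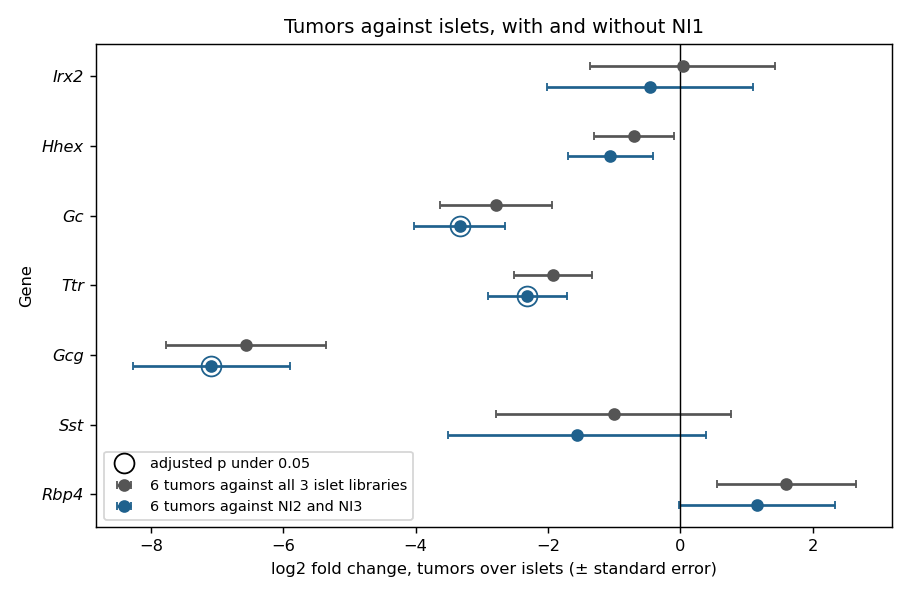
log2 fold change of tumors over islets (horizontal axis, ± standard error) for the tested members and 3 genes of the alpha and delta lists (vertical axis), with all 3 islet libraries in grey and with NI2 and NI3 alone in blue; rings mark an adjusted p under 0.05. Gc moves from -2.78 to -3.33 and Ttr from -1.92 to -2.31 when NI1 is left out.

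Markers of other cell types were read in the same libraries. All 6 acinar genes were lower in every tumor than in every islet library, a separation seen in 3.17% of the tested genes. Their sums were 0.821 to 304 CPM in tumors, 576 CPM in NI1, 723 CPM in NI2 and 10795 CPM in NI3. In edgeR 0 of the 6 acinar genes passed against all 3 islet libraries, and 1 was lower without NI1 (Cela1). Ms4a1, a marker of B cells, was lower in tumors against all 3 islet libraries (log2 fold change -4.64, edgeR adjusted p = 0.00993, and -4.93, adjusted p = 0.00326, without NI1). Among the islet libraries NI3 was highest in acinar genes as well as in Irx1, Irx2, Hhex, Ttr, Gcg and Sst, and whether these go together was not tested. The insulin genes also lay lower in every tumor than in every islet library, though for Ins2 by a very small margin. Ins2 was at 7313 to 88719 CPM in tumors and 88895 to 248686 CPM in islets, so the highest tumor and the lowest islet library were nearly level. The log2 fold changes of both insulin genes were close to that of Ttr, at -1.89 for Ins1 and -2.11 for Ins2 (edgeR adjusted p = 0.196 and 0.270). Without NI1 they were -2.26 and -2.45 (edgeR adjusted p = 0.0923 and 0.181). DESeq2 called both lower (adjusted p = 0.00955 and 0.0222). The hormones of PP cells, Ppy and Pyy, did not pass with or without NI1.

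Functional and non-functional tumors were then compared with the islets separately and with each other, in a fit of all 3 groups. In functional tumors, 0 of 4 members passed against islets, 2 of them with an unadjusted p under 0.05, as for 3280 of all 15532 genes, while 0.476% of all tested genes were called in either direction. The log2 fold changes were -2.56 for Gc, -2.08 for Ttr, -1.42 for Hhex and 0.88 for Irx2 (edgeR adjusted p = 0.231, 0.180, 0.247 and 0.754). Without NI1, 0 of 4 passed, against 2.66% of all genes called lower. In non-functional tumors the values were -3.04, -1.77, -0.22 and -2.31 (edgeR adjusted p = 0.332, 0.342, 0.880 and 0.462). None of the 4 members and 0% of all genes passed, although 2 members and 2246 of 15532 genes had an unadjusted p under 0.05. DESeq2 called 0 members and 394 genes. Without NI1, 0 of 4 members passed, against 1.04% of all genes called lower.

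Between functional and non-functional tumors the member with the greatest difference was Irx2, which was 9.18-fold higher in functional tumors by the fit (log2 fold change 3.20, standard error 1.54, edgeR adjusted p = 0.507). It did not pass, and M5 at 1.92 CPM, a non-functional tumor, lay above M1 at 0.322 CPM. Hhex differed by -1.20 (standard error 0.64, adjusted p = 0.544), Gc by 0.48 (standard error 1.06, adjusted p = 0.903) and Ttr by -0.31 (standard error 0.74, adjusted p = 0.910). None of the 4 members and 0% of all genes passed in edgeR, where 0 members and 1598 genes had an unadjusted p under 0.05, and DESeq2 called 0 members and 111 genes.

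Ordered by level per kilobase of exon, the members in NI2 and NI3 ran from Ttr (961 CPM per kb) and Gc (306) to Hhex (2.04), Irx1 (1.59) and Irx2 (1.51), the last 3 closer to each other than the spread between the libraries. The means over the 6 tumors were 194 for Ttr, 30.5 for Gc, 1.10 for Irx2, 0.985 for Hhex and 0.0648 for Irx1. The mean of Irx2 rested on M2 and M3, and its order with Hhex did not hold in the other tumors.

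The transcripts most like Gc were Vrk2 (r = 0.964), Qars (r = 0.952) and 6330403K07Rik (r = 0.949), and those most like Ttr were B4galt4 (r = 0.985), Srp9 (r = 0.981) and Tdrd3 (r = 0.980). Srp9, a subunit of the signal recognition particle that delivers secreted proteins to the endoplasmic reticulum, was at 36.5 CPM in M3, where Ttr was also lowest, at 63.5 to 77.9 CPM in the other tumors and at 113 and 117 CPM in NI2 and NI3. These correlations rest on 9 libraries, in which the tumors and the normal islets already stand apart.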

How the data were processed

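The authors trimmed reads with Trimmomatic 0.38, quantified them with Salmon 1.4.0 on mm10, and deposited estimated counts per gene as whole numbers, not scaled between libraries; the counts are named TPM in the deposit, but their column totals differ. How transcripts were summed to genes, and strand, are not given in the sources used here. Identifiers were matched to GENCODE for GRCm38 (54094 of 54347 genes; the 253 others held 0.0121% of counts). The 15532 genes that reached 1 CPM in 3 or more libraries entered the fits. Counts were TMM-scaled and tested with edgeR 4.0.16 (quasi-likelihood, two-sided, Benjamini-Hochberg over all tested genes, threshold 0.05) in R 4.3.3, 6 tumors against 3 islets, and the 2 tumor groups in a fit of 3 groups. Standard errors are the log2 fold change over the root of F. Irx1, under the filter, had an exact permutation test on log2(CPM + 1). DESeq2 1.42.0, limma 3.58.1, other scalings and filters, blocking on replicate number and dropping each library in turn were alternatives, and leaving out M6 with NI1 was added after the data were seen. On simulated data with known changes, edgeR, DESeq2 and limma were first checked for tumors against islets. The edgeR fit was also checked for functional tumors against islets and against non-functional tumors. Other comparisons and settings were not checked in this way. The simulated libraries shared a common mean profile and a fixed spread, with no library standing apart from its group as NI1 does. The check therefore does not bear on how the tools differ on the real libraries. Members and lists were chosen with earlier results of these data known. Named were the members, list genes called in tumors against islets, the islet hormones, Rbp4, Cdk5r1, paralogs and the 3 genes most correlated with each tested member; others were named after their values were seen. Some genes of the rule and lists are not reported here. The labels do not say that samples came from separate animals, so p-values measure the spread between these samples.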

Additional observations from a re-analysis of the deposited data

Results flagged for a closer look

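Ttr in M3 stood below the other tumors. On log2(CPM + 1) its gap to the next tumor was 0.652 of the range of the 6 tumors, past the critical value of Dixon's test for 6 samples, with Ttr at 35.1 CPM in M3 and 165 to 372 CPM in the other 5. It was the only 1 of 5 members with counts to be flagged, and chance flags about 1 in 20 groups.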

How the results depend on the processing

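Members called in tumors against islets numbered 0 with all 9 libraries in edgeR, 1 with DESeq2 (Ttr), 0 to 2 when a library was left out, with 2 without NI1 (Gc and Ttr), and 1 without both M6 and NI1 (Gc, adjusted p = 0.0122). In functional tumors against islets they numbered 1 with DESeq2 (Ttr, adjusted p = 0.0241) and 1 without both M6 and NI1 (Gc, adjusted p = 0.0327). Over all alternatives the adjusted p for tumors against islets ran from 0.0122 to 0.601 for Gc and from 0.0168 to 0.599 for Ttr. Genes called lower over all tested genes numbered 40 in edgeR, 488 with DESeq2 and 6 to 520 over 19 alternatives, and genes called higher 0, 764 and 0 to 893. The lower calls numbered 461 without NI1, 137 without M6, 70 without M4, 15 without M5, 7 without NI2, 6 without NI3 and 21 to 24 without M1, M2 or M3. The cause of these changes was not tested. Scaling to pan-endocrine genes gave 71 higher and 43 lower calls. There Hhex turned to 0.15 against islets and to 0.46 in non-functional tumors. Irx2 in tumors against islets turned to -1.23 with limma-trend, -0.20 without both M6 and NI1, and -0.71 as the mean of both tumor groups, and ran from -0.83 (without M2) to 1.45 (without NI3) when a library was left out. Hhex in non-functional tumors against islets then ran from -0.83 (without M4) to 0.44 (without NI3). Between functional and non-functional tumors Gc ran from -0.26 to 1.43 (-0.019 without both M6 and NI1) and Ttr from -1.07 to 0.19, none past the threshold. The difference for Irx1 ran from -1.98 to -0.91 when a library was left out and was -3.23 with a pseudocount of 0.1, where each exact permutation p was the smallest its labelings allow and so says nothing of stability, while edgeR without a filter did not call it (adjusted p = 0.0980). Functional tumors shared replicate numbers with islets, but the deviations of same-numbered libraries did not correlate (r = -0.026, 0.003 and -0.125). With a replicate block 0 members passed, with 10 genes higher and 24 lower against 56 and 107 without it.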
